A study of Homo sapiens with 18 samples.

Results

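The response to interleukin-4 (IL-4) of THP-1 macrophages that carry an empty retroviral vector was described across genes from 6 of the 18 RNA-seq libraries of the series. THP-1 is an established human monocytic leukaemia line, and its cells become adherent and macrophage-like when given the phorbol ester PMA. The libraries were chosen by their titles. There were 3 from empty-vector (IRES) cells given IL-4 at 20 ng/ml for 3 h and 3 from unstimulated IRES cells, and each of 3 numbered experiments gave 1 library of each kind. All of these cells, the unstimulated ones included, carried the MSCV vector with GFP, were sorted for GFP and had 48 h of PMA at 5 ng/ml, so "unstimulated" means PMA without IL-4. The other 12 libraries came from cells made in the same way with a vector for the intracellular domain of NOTCH1 (NIC1), the active form of that receptor, or for dominant-negative Mastermind-like (DNMAML), which blocks Notch-driven transcription, with and without IL-4. The labels describe sorted cells and name no clone. They do not say what sets the numbered experiments apart, so part of the spread on which the p-values rest may be technical.

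IL-4 is a cytokine of type 2 immunity, made by T helper cells, mast cells, basophils and innate lymphoid cells. On macrophages it binds the receptor chain IL4R, which pairs with the common gamma chain or with IL13RA1, and Janus kinases bound to these chains phosphorylate STAT6. STAT6 dimers enter the nucleus and bind DNA at paired TTC and GAA letters spaced by a few bases, while IRS adaptors bound to the receptor recruit PI3-kinase. Macrophages kept with IL-4 take on the alternatively activated state, known for scavenger receptors, lipid mediators, tissue repair and defence against worms.

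In the 6 IRES libraries, between 12510561 and 14709206 reads were counted in genes. Between 21110 and 21557 genes were detected in 5 of these libraries and 23179 in the unstimulated library of experiment 3, which stood apart in this respect. In counts across genes, the library of experiment 2 differed most from the others in either group. Of the macrophage markers, LAPTM5, SPI1, CSF1R, ITGAM and CTSS had between 169 and 2110 CPM (read counts scaled to a common library size) in every IRES library. CD14 had 1.59 to 7.36 CPM, CD68 0.702 to 0.977 CPM, and MRC1 and MARCO at most 0.0779 and 0.216 CPM, so several defining macrophage markers were near 0 in these cells. The 20 macrophage and monocyte markers summed to between 3200 and 3540 CPM with IL-4 and between 3400 and 3760 CPM without it. Markers of T and NK cells summed to 100 to 116 CPM with IL-4 and 105 to 121 CPM without it, most of it from TRAC (75.5 to 95.2 CPM over the 6 libraries), and CD8B was at 0 in all 6. Markers of fibroblasts and epithelia summed to 103 to 201 CPM with IL-4 and 129 to 172 CPM without it. Among these, COL1A1 had 74.2 to 142 CPM and COL1A2 8.15 to 27.8 CPM over the 6 libraries. Bulk libraries cannot tell a change in the number of cells of a kind from a change in RNA per cell.

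The promoter of CISH is shown first because CISH had the highest fitted change of the genes with ample counts, and because the DNA letters bound by STAT factors can be seen in it. The windows run from 250 bases before to 50 bases after the annotated start of the gene (RefSeq, GRCh38.p14, written 5′ to 3′ on the gene's strand). Capitals mark TTCNNNGAA, a spacing bound by several STAT factors, and the STAT6 motif, in which TTC and GAA stand 4 bases apart. Each pattern reads the same on both strands. CISH lies on the minus strand at chr3:50611725-50612024, and its window held TTCNNNGAA at 4 places, with first letters at positions -241, -230, -129 and -112 from the start.
CISH: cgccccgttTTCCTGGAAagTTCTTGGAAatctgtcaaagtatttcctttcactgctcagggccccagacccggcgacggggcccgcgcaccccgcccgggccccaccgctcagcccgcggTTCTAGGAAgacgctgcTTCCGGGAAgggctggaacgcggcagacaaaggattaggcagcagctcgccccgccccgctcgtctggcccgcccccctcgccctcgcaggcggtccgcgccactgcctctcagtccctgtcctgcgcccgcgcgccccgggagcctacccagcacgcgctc

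Of the 20 genes with the highest changes, 16 had a window in the table, and 3 of these held a match. Beside CISH, these were CCL8, plus strand, window chr17:34319185-34319484, with a match at -91 to -83, and STAMBPL1, plus strand, window chr10:88879995-88880294, with a match at -103 to -94. Their matches are given with the bases on either side.
CCL8: actcagcataTTCAAGGAAggtcttactt
STAMBPL1: tgcgagctttTTCTGCAGAAtgcgggaagc
Neither pattern was in the windows of SOCS1, HAS3 or SERPINB4, or in those of the 10 matched genes among the 14 with the lowest changes. Either pattern was in 12.8% of the 554 matched promoters of genes that rose, 6.78% of the 487 of genes that fell, 10.6% of the 11101 of all genes tested and 13.6% of all 27305 windows. For the STAT6 motif alone the shares were 7.22%, 3.29%, 4.72% and 6.37%, and for TTCNNNGAA alone 6.14%, 3.49%, 6.31% and 7.88%. These matches describe letters, not bound sites.

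After 3 h of IL-4, 732 of 15037 genes were higher (4.87%) and 628 were lower (4.18%) than in unstimulated cells, or 1360 in all (9.04%). Each call rests on an adjusted p under 0.05 in edgeR's quasi-likelihood test, with the experiment number as a block and Benjamini-Hochberg adjustment over the 15037 genes, and fold changes are on the log2 scale as IL-4 over unstimulated, with their standard error (SE). The rises were larger than the falls. The median change was 0.63 among the genes that rose, -0.40 among those that fell and -0.0055 over all genes. A rise of at least 1, which is a doubling, was found for 216 genes (1.44%) and a fall of at least 1 for 68 (0.452%), while 77 genes rose and 7 fell by at least 2, and 25 rose and none fell by at least 3. Among the called genes, the IL-4 libraries all lay above the unstimulated ones for 545 of the 732 (7.24% of all genes did so), and all below for 366 of the 628 (6.08% of all genes). The direction was the same in all 3 experiments for 730 of the genes that rose and for all 628 of those that fell, against 46.6% of all genes. The calls were made on these same libraries, so this agreement and the lack of overlap follow in large part from the call. Without the experiment number in the model, 304 genes were higher (2.02%) and 137 lower (0.911%), and all 441 were among the 1360. A fit of the 6 IRES libraries alone, with the block, called 1287 genes higher and 1527 lower, so that falls then outnumbered rises. Without the unstimulated library of experiment 3, 399 genes were lower. Protein-coding genes, which were most of the genes tested, gave 681 up (5.27%) and 603 down (4.67%) of 12923, close to the shares of all genes. Long intergenic RNAs gave 18 up (3.56%) and 7 down (1.39%) of 505.

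**Figure D1:**
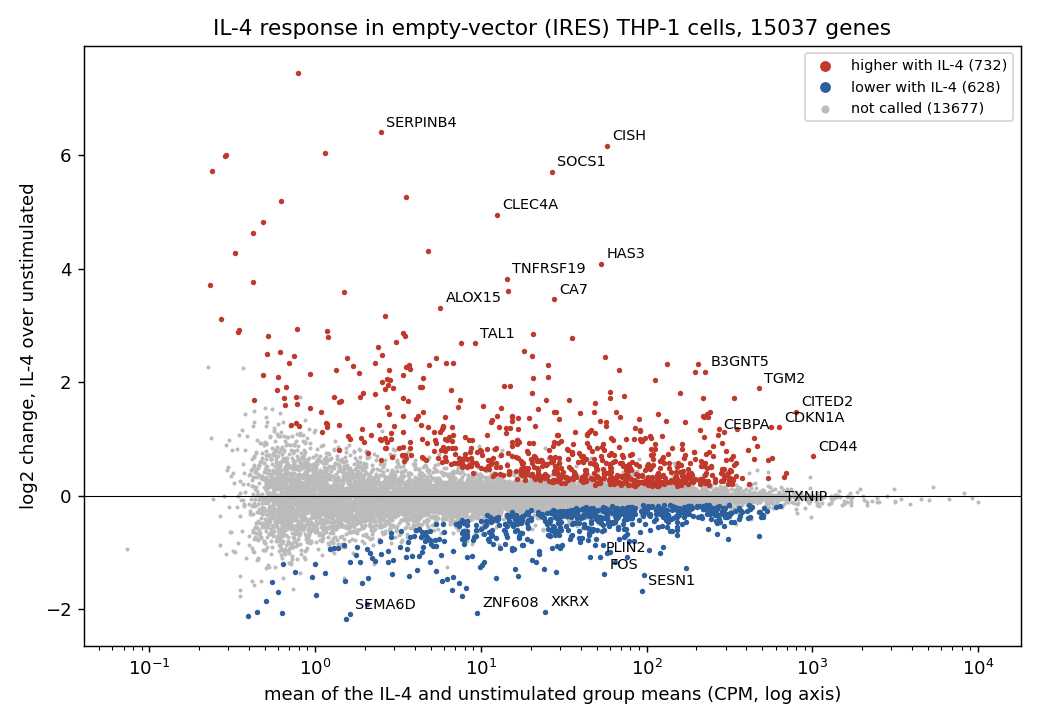
Log2 change (vertical axis, IL-4 over unstimulated) of each of the 15037 genes against the mean of its IL-4 and unstimulated levels (horizontal axis, CPM, log scale) in IRES cells. The 732 genes called higher (red) reach beyond 6 on the log2 scale, while the 628 called lower (blue) reach to about -2.

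The signalling chain of the receptor was itself moved in part. Of 26 tested genes for receptor chains, kinases, adaptors and STAT factors, 7 rose (26.9%) and 3 fell (11.5%), beside 4.87% and 4.18% of all genes. Here and below, lists and members were chosen with earlier results of these data known. A list share above that of all genes is therefore a description and no test of a pathway. The shares of all genes, 4.87% higher and 4.18% lower, are the ones to set beside every list share below. Without the experiment block 3 rose and none fell. The median change of the list was 0.0093. The largest rise was in PIK3R5, a regulatory subunit of PI3-kinase gamma, which had 144, 110.5 and 137 CPM in the IL-4 libraries of experiments 1, 2 and 3, against 58.4, 43.8 and 50.8 CPM in the unstimulated ones. The groups did not overlap, and the change was 1.35 (SE 0.074, adjusted p = 1.89e-11). PIK3CD, the catalytic subunit of PI3-kinase delta, averaged 168 ± 17.4 CPM with IL-4 and 81.7 ± 21.1 CPM without it (SD over 3 libraries here and below), a change of 1.06. STAT5A, a STAT factor of many cytokine receptors, rose by 0.73 (SE 0.062), to 136 ± 14.6 CPM with IL-4, against 81.7 ± 3.93 CPM without it. IL4R, the receptor chain that binds IL-4, had 195, 151 and 190 CPM with IL-4, against 146, 105 and 126 CPM in unstimulated cells. It was higher with IL-4 in each of the 3 experiments, by 0.51 (SE 0.11, adjusted p = 0.0063, or 0.088 without the experiment block). STAT3, another cytokine-activated factor, rose by 0.38 to 327 ± 62.1 CPM with IL-4, against 249 ± 14.3 CPM without it.

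IRS1 and IRS2, the adaptors that link the receptor to PI3-kinase, both fell. IRS1 averaged 5.72 ± 1.16 CPM with IL-4 and 10.0 ± 2.02 CPM without it (-0.79, SE 0.18), and IRS2 averaged 121 ± 27.5 CPM with IL-4 and 147 ± 46.9 CPM without it (-0.26, SE 0.073). IL13RA1, the partner chain of IL4R in the receptor that IL-13 also uses, fell by 0.27. JAK3, the kinase bound to the common gamma chain, rose by 0.65 (adjusted p = 0.048), and the adaptor GAB2 rose by 0.31 (adjusted p = 0.033). Without the experiment block the adjusted p was 0.205 for STAT3, 0.065 for IRS1, 0.156 for JAK3, 0.221 for GAB2, 0.969 for IL13RA1 and 0.977 for IRS2. Without the pair of libraries that had the most genes detected, unstimulated replicate 3 and IL-4 DNMAML replicate 3, 4 members rose and IL4R had an adjusted p of 0.063. STAT3 had an adjusted p of 0.052 when only the 6 IRES libraries were fitted. Single libraries also decided calls here, and the falls numbered 1 without unstimulated replicate 3 or IL-4 replicate 3 and 0 without IL-4 replicate 2. IRS1 lost its call without unstimulated replicate 3 or IL-4 replicate 2 or 3 (adjusted p up to 0.067), IL13RA1 without unstimulated replicate 1 or IL-4 replicate 2 or 3 (up to 0.086), and IRS2 without unstimulated replicate 2 or 3 or IL-4 replicate 1 or 2 (up to 0.195). GAB2 and JAK3 lost theirs without any 1 of the 3 unstimulated libraries or IL-4 replicate 1 or 3 (up to 0.235 and 0.200). Of the members with high levels that did not pass the test, TYK2, INPP5D and GRB2 had changes of 0.015, -0.0012 and -0.063. The signs of the TYK2 and INPP5D values turned with the libraries or genes included.

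Genes for the inhibitors that switch cytokine signals off were moved in both directions. CISH, which encodes an inhibitor of STAT signalling, had 125, 99.7 and 116 CPM in the IL-4 libraries, against 2.03, 1.52 and 1.17 CPM in the unstimulated ones. The change was 6.16 (SE 0.13, adjusted p = 1.76e-18). CISH had 4824 reads in the IL-4 libraries together and 64 in the unstimulated ones. The SEs came from the F statistic, and for large changes with few unstimulated reads they can fall below counting error, as here. SOCS1, which blocks Janus kinases, had 60.8, 39.4 and 57.9 CPM with IL-4, against 0.653, 1.15 and 1.17 CPM without it, a change of 5.71 (SE 0.21). In both genes the lowest IL-4 library was that of experiment 2, and it still lay far above every unstimulated library. SOCS3, an inhibitor best known from IL-6 signalling, rose by 1.20 (SE 0.20), and PTPN1, a phosphatase that acts on Janus kinases, by 0.49 (SE 0.055). Of 27 tested feedback inhibitors and phosphatases, 5 rose (18.5%) and 4 fell (14.8%), and without the experiment block 4 rose and 1 fell. DUSP10, a phosphatase of the stress kinases JNK and p38, averaged 39.7 ± 6.81 CPM with IL-4 and 89.0 ± 10.4 CPM without it (-1.17, SE 0.079, adjusted p = 6.14e-10). SPRY1 and SPRY2, inhibitors of receptor tyrosine kinase signals, fell by 0.87 and 0.35, and the adaptor SH2B3 fell by 0.45. DUSP6, a phosphatase of ERK, rose by 0.29 (adjusted p = 0.041). The adjusted p without the experiment block was 0.338 for SH2B3, 0.656 for SPRY1, 0.899 for SPRY2 and 0.789 for DUSP6. SPRY2 lost its call without unstimulated replicate 2 or 3 or IL-4 replicate 1 or 3 (up to 0.116), and DUSP6 without unstimulated replicate 1 or 3 or any 1 of the IL-4 libraries (up to 0.253). The phosphatases PTPRC, PTPN6 and PTPN11 and the inhibitor SPRED2 did not pass the test, with changes of -0.11, -0.077, 0.016 and -0.063.

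**Figure D2:**
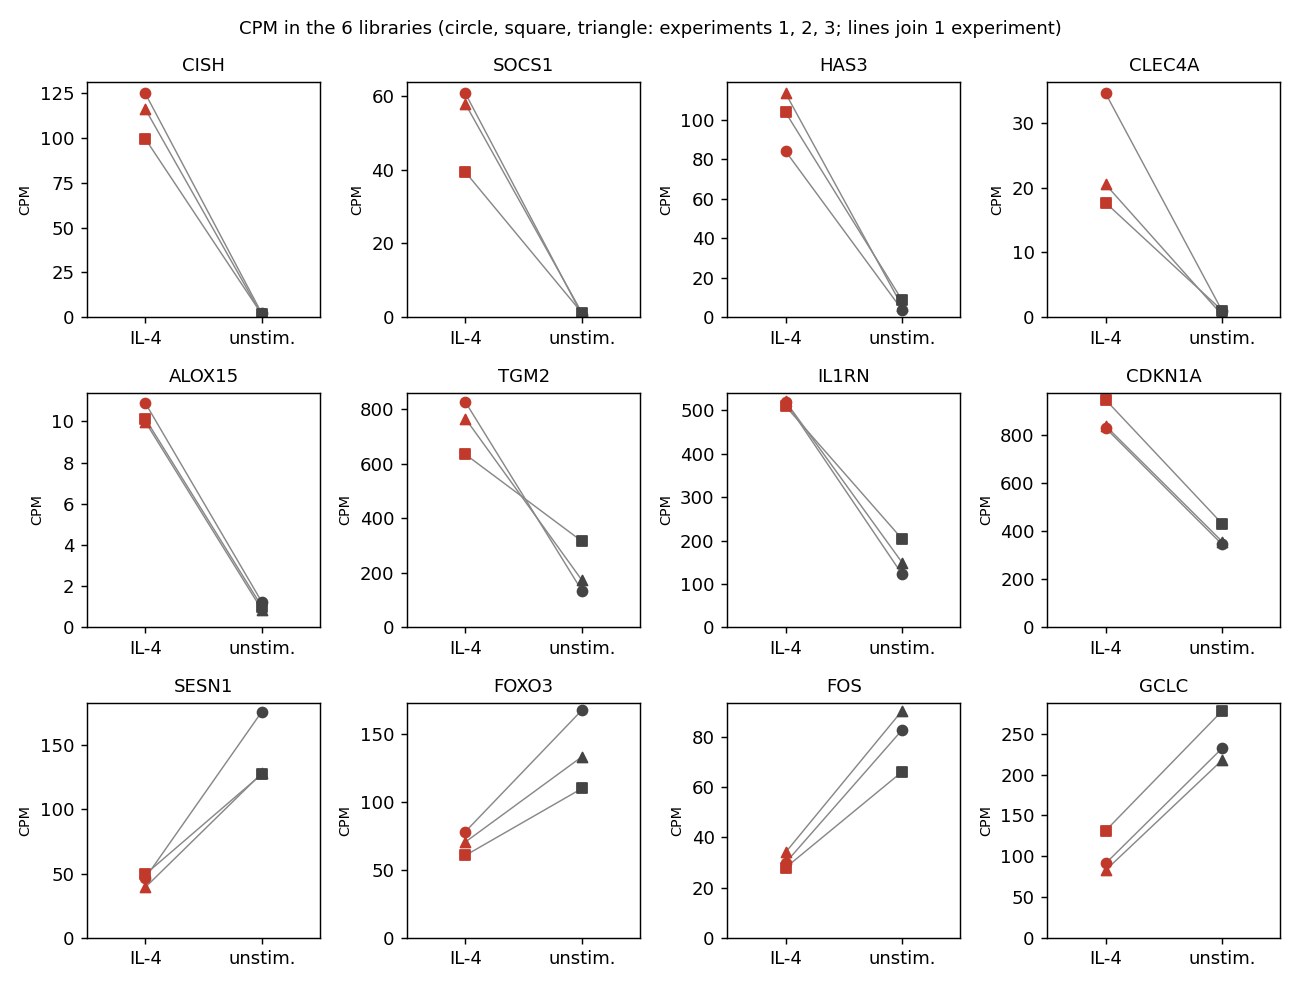
CPM of 12 genes in each of the 6 IRES libraries, with IL-4 on the left (red) and unstimulated on the right (grey) of each panel, markers for experiments 1, 2 and 3, and lines that join libraries of 1 experiment. CISH and SOCS1 lie near 0 in unstimulated cells, TGM2 and IL1RN start from measurable levels, and SESN1, FOXO3, FOS and GCLC are lower with IL-4 in all 3 experiments.

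Of 29 tested genes known from alternatively activated macrophages, 13 rose (44.8%) and 2 fell (6.9%), and the median change was 0.46, with 20 above 0 and 9 below. Without the experiment block 9 rose and 1 fell. CLEC4A, a C-type lectin with an inhibitory motif, had 34.6, 17.7 and 20.5 CPM with IL-4, against 0.944, 1.01 and 0.312 CPM without it (4.95, SE 0.24). ALOX15, the 15-lipoxygenase of human IL-4-treated monocytes, had 10.9, 10.1 and 9.99 CPM with IL-4, against 1.23, 1.01 and 0.857 CPM without it (3.31, SE 0.20). In both genes the 2 groups were far apart, and the ALOX15 libraries of each group were close together. BATF3, a transcription factor of dendritic cells, averaged 6.11 ± 0.474 CPM with IL-4 and 1.24 ± 0.331 CPM without it (2.30, SE 0.25). PDCD1LG2, which encodes PD-L2, a ligand of PD-1 on T cells, had 9.13, 2.03 and 4.96 CPM with IL-4, against 1.16, 0.505 and 0.702 CPM without it (2.71, SE 0.29). TGM2, transglutaminase 2, had 827, 635 and 766 CPM with IL-4, against 135, 316 and 173 CPM without it. Its change by experiment was 2.62, 1.01 and 2.15, so the smallest was in experiment 2, where the unstimulated level was highest (fitted 1.90, SE 0.31, adjusted p = 0.0020). IL1RN, the IL-1 receptor antagonist, reached 520, 510.2 and 521 CPM with IL-4, against 122.5, 204 and 150 CPM without it (1.73, SE 0.15). In a fit of the 6 IRES libraries alone, TGM2 and IL1RN did not pass the test (adjusted p = 0.168 and 0.056). CD209, the lectin DC-SIGN, rose by 1.67 and PPARG, a nuclear receptor for fatty acids, by 1.38.

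Smaller rises were found for F13A1, coagulation factor XIII A (0.69, SE 0.11), CLEC7A, the beta-glucan receptor dectin-1 (0.55, SE 0.12), and EGR2, a zinc finger factor (0.46, SE 0.11). The genes that fell were KLF4 (-1.05, SE 0.17) and MYC (-0.55, SE 0.12), both transcription factors listed for mouse or human IL-4-treated macrophages. SERPINB4, a protease inhibitor of squamous epithelia, and FCER2, the low-affinity IgE receptor CD23, passed the test at very low counts. SERPINB4 had 211 reads in the IL-4 libraries together and 2 in the unstimulated ones, a ratio of 101 with a 95% counting interval of 27.6 to 840, and FCER2 had 21 and 2 reads, a ratio of 10.1 (2.46 to 88.5). These intervals cover counting error only, and reads of SERPINB4 may be shared with its near-copy SERPINB3. Without the experiment block the adjusted p was 0.072 for F13A1, 0.958 for CLEC7A, 0.088 for EGR2, 0.434 for MYC and 0.068 for FCER2. CLEC7A had an adjusted p of 0.053 without unstimulated replicate 3 and IL-4 DNMAML replicate 3. EGR2 lost its call without unstimulated replicate 1 or 3 (up to 0.072) and FCER2 without unstimulated replicate 1 or 2 or IL-4 replicate 1 (up to 0.118). The members with the highest levels among those that did not pass the test were CHI3L1, with 2354 ± 218 CPM with IL-4 and 2532 ± 225 CPM without it, PTGS1, TGFBI and FN1, with changes of -0.10, -0.053, 0.083 and -0.048. The sign of the FN1 value turned when libraries were left out. Another 12 listed genes were too low to test, among them MRC1, with 1 read in each group, and ARG1, with none.

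**Figure D3:**
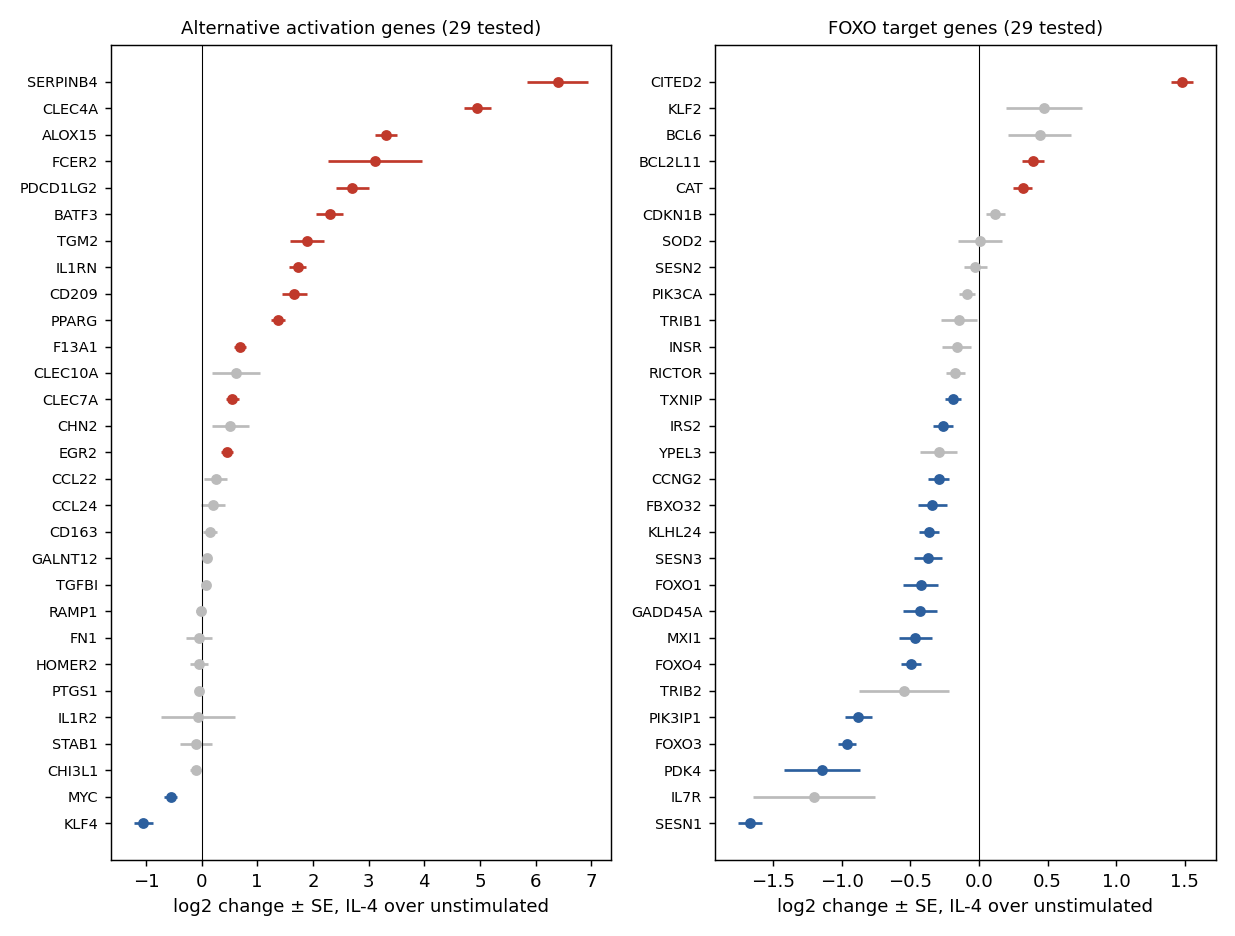
Log2 change (horizontal axis, IL-4 over unstimulated) and its SE (bars) of the 29 tested alternative activation genes (left) and the 29 tested FOXO target genes (right) in IRES cells. Red genes were called higher, blue genes lower and grey genes were not called. On the left 13 are red and 2 blue, and on the right 3 are red and 14 blue.

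The transcription factors that set haematopoietic lineages split in both directions, with 11 up (28.2%) and 7 down (17.9%) of 39 tested and a median change of 0.0046 (8 and 2 without the experiment block). CEBPA, a factor of myeloid differentiation, had 426, 286 and 378 CPM with IL-4, against 210.0, 133 and 177 CPM without it (1.07, SE 0.064). BATF, an AP-1 family factor of lymphocytes and dendritic cells, had 30.5, 34.2 and 35.1 CPM with IL-4, against 6.32, 10.2 and 7.17 CPM without it (2.08, SE 0.13). TAL1, a factor of blood stem and erythroid cells, had 12.9, 14.3 and 20.8 CPM with IL-4, against 2.40, 2.02 and 2.96 CPM without it (2.69, SE 0.18). None of these 3 genes had overlapping groups. ZEB2, a repressor needed for macrophage identity in mice, fell to 86.9 ± 6.39 CPM with IL-4, against 163 ± 21.3 CPM without it (-0.90, SE 0.081). GATA3, the master factor of T helper 2 cells, was low in both groups and fell to 0.794 ± 0.296 CPM with IL-4, against 2.24 ± 0.568 CPM without it (-1.50, adjusted p = 0.0011, or 0.170 without the experiment block).

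Of 27 tested early response factors, 5 rose (18.5%) and 7 fell (25.9%), or 2 and 3 without the experiment block, and 2 partners of the AP-1 complex moved in opposite directions. FOS had 29.8, 27.9 and 34.0 CPM with IL-4, against 82.8, 66.2 and 90.5 CPM without it (-1.38, SE 0.082, adjusted p = 7.83e-11). JUN had 60.9, 35.1 and 52.8 CPM with IL-4, against 33.3, 23.6 and 30.6 CPM without it (0.75, SE 0.074, adjusted p = 1.88e-07, or 0.126 without the experiment block). The unstimulated level of both was lowest in experiment 2. ATF3, a stress-induced repressor of inflammatory genes, rose by 1.14 (SE 0.11), and KLF6, a zinc finger factor that favours inflammatory genes in mice, fell by 0.99 (SE 0.13).

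Of 32 tested genes of the NF-kappaB pathway and of inflammatory cytokines, 5 rose (15.6%) and 9 fell (28.1%), or 1 and 2 without the experiment block, and the median change was -0.13. The falls numbered 5 without replicate 2 of either group and 4 without IL-4 replicate 3. NFKB1, which encodes the p105 precursor and its p50 product, rose to 208 ± 7.80 CPM with IL-4, against 150 ± 5.26 CPM without it (0.47, SE 0.063). ICAM1, an adhesion molecule for leukocyte integrins, rose by 0.66 (adjusted p = 0.107 in a fit of the 6 IRES libraries alone). CCL20, a chemokine for CCR6-bearing cells, had 3.81, 10.1 and 3.79 CPM with IL-4, against 8.86, 20.6 and 12 CPM without it. Its groups overlapped, with both libraries of experiment 2 high, and the fall was present within each experiment (-1.26, SE 0.18, adjusted p = 3.51e-05). Among 23 tested chemokines and receptors, 5 rose (21.7%) and 3 fell (13%), or 1 and 0 without the experiment block. CCL4, a chemokine for monocytes and T cells, had 5.58, 25.9 and 8.10 CPM with IL-4, against 0.653, 3.75 and 1.56 CPM without it (2.70, SE 0.23), and CCL5, a chemokine for the same cells, rose by 0.64. The adjusted p without the experiment block was 0.157 for CCL4, 0.392 for CCL20, 0.463 for CCL5 and 0.241 for ICAM1, and reads of CCL4 may be shared with its gene copies.

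The chemokines CCL8, CCL13, CCL17 and CCL26, which attract T helper 2 cells, eosinophils or monocytes, were close to the limit of detection. CCL8 had 98 reads in the IL-4 libraries together and 1 in the unstimulated ones, a ratio of 93.9 with a 95% counting interval of 16.5 to 3750. CCL13 had 23 reads and none, at least 7.34-fold higher when 3 reads are taken as the most that a count of 0 over the group allows. This bound takes the 23 reads as exact. CCL17 had 4 reads and none, and CCL26 had 6 and none, too few for a bound on the fold. CCL13, CCL17 and CCL26 were too low to enter the test.

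Interferon-stimulated genes were called higher at close to the share of all genes. Of 40 tested, 2 rose (5%) and none fell (0%) in edgeR, beside 4.87% and 4.18% of all genes. DESeq2 gave the same counts, and no member was called without the experiment block. At an unadjusted p under 0.05, edgeR gave 6 rises and 0 falls. The median change was 0.23, with 35 of 40 above 0 and 48.4% of all genes above 0. GBP1, a guanylate-binding protein induced by interferon-gamma, had 27.1, 3.38 and 16.6 CPM with IL-4, against 6.90, 2.02 and 6.0 CPM without it. It was lowest in experiment 2 in either group, and the groups overlapped (1.59, SE 0.22, adjusted p = 6.55e-05, or 0.561 without the block). ISG20, an RNA exonuclease, rose by 0.66 (adjusted p = 0.013, or 0.25 without the block), and lost its call without unstimulated replicate 2 or IL-4 replicate 3 (up to 0.131).

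Of 26 tested Fc receptors and phagocytic lectins, 9 rose (34.6%) and 2 fell (7.69%), or 4 and 1 without the experiment block, and the median change was 0.065. FCGR2A, an activating receptor for IgG, had 145, 82.8 and 109 CPM with IL-4, against 33.9, 14.4 and 25.4 CPM without it (2.21, SE 0.11). FCGR2B, the inhibitory IgG receptor, averaged 5.88 ± 1.30 CPM with IL-4 and 1.20 ± 0.436 CPM without it (2.27, SE 0.22). FCGR2A, FCGR2B and FCGR2C are near-identical over long stretches, so the split of reads between them is uncertain. FCAR, the receptor for IgA, moved the other way, with 7.95, 10.4 and 9.12 CPM with IL-4, against 26.3, 24.4 and 22.1 CPM without it (-1.41, SE 0.13). Its libraries were close within each group and far apart between them.

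Of 22 tested genes for antigen presentation and co-stimulation, 3 rose and 2 fell (2 and 1 without the experiment block), or 13.6% and 9.09%, beside 4.87% and 4.18% of all genes. The ligands of PD-1 both rose, with PDCD1LG2 described above and CD274, which encodes PD-L1, at 5.19 ± 0.597 CPM with IL-4 and 1.57 ± 0.484 CPM without it (1.73, SE 0.26, adjusted p = 6.00e-05). ICOSLG, a ligand that stimulates T cells through ICOS, fell by 0.85 (SE 0.11). HLA-DMB, which helps to load peptides on MHC class II, fell by 0.86 (SE 0.16, adjusted p = 6.40e-04, or 0.553 without the experiment block).

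Of 20 tested genes of eicosanoid synthesis and reception, 2 rose and 2 fell (2 and 1 without the experiment block), which is 10.0% in each direction, beside 4.87% and 4.18% of all genes. CYSLTR1, the receptor for cysteinyl leukotrienes, had 323, 322 and 303 CPM with IL-4, against 130, 113 and 118 CPM without it (1.40, SE 0.056, adjusted p = 1.50e-13), with little spread in either group. PTGER4, a receptor for prostaglandin E2, fell by 0.77 (SE 0.098), and ALOX5AP, the partner protein of 5-lipoxygenase, fell by 0.38 (SE 0.062, adjusted p = 1.76e-04, or 0.649 without the block). Of 28 tested targets and partners of PPAR and LXR receptors, 4 rose (14.3%) and 5 fell (17.9%), or 2 and 1 without the block, and 3 fell without replicate 1 of either group or IL-4 replicate 3. PPARG had 30.3, 20.6 and 33.6 CPM with IL-4, against 12.9, 7.0 and 12.8 CPM without it (1.38, SE 0.13). PLIN2, the coat protein of lipid droplets and a known PPAR target, fell to 33.7 ± 1.83 CPM with IL-4, against 71.5 ± 5.05 CPM without it (-1.09, SE 0.10). SREBF1, a factor of fatty acid synthesis, and RARA, a retinoic acid receptor, rose by 0.54 and 0.57 (adjusted p without the block 0.097 and 0.0098). Of 24 tested cholesterol synthesis genes none rose in edgeR (1 at an unadjusted p under 0.05) or in DESeq2 and 2 fell (8.33%), SQLE by 0.46 and STARD4 by 0.48, and neither was called without the block (adjusted p = 0.267 and 0.118).

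FOXO factors are switched off by the PI3-kinase and AKT route, and they drive genes of growth arrest, starvation and antioxidant defence. Of 29 tested FOXO target genes, 14 fell (48.3%, beside 4.18% of all genes) and 3 rose (10.3%), the median change was -0.30, and 22 of 29 values were below 0. This list too was chosen with earlier results known, so its share tests nothing about the route. Without the experiment block 2 fell and 1 rose. The falls numbered 6 without unstimulated replicate 3 or IL-4 replicate 1, 7 without unstimulated replicate 1 or IL-4 replicate 2, and 8 without IL-4 replicate 3. SESN1, sestrin 1, which restrains the growth kinase mTORC1, had 46.5, 49.3 and 39.2 CPM with IL-4, against 176, 128 and 128 CPM without it (-1.67, SE 0.089, adjusted p = 7.83e-11). FOXO3, itself a FOXO factor, had 78.1, 60.6 and 70.5 CPM with IL-4, against 168, 110 and 133 CPM without it (-0.96, SE 0.066). In both genes every IL-4 library lay below every unstimulated one. PIK3IP1, an inhibitor of PI3-kinase, fell by 0.88 (SE 0.099, adjusted p = 1.34e-06, or 0.069 without the block). CITED2, a transcriptional co-regulator that limits inflammatory genes in mouse macrophages, moved against the list. It had 1075, 1269 and 1166 CPM with IL-4, against 328, 516 and 425 CPM without it (1.48, SE 0.078, adjusted p = 1.22e-11).

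Of 34 tested p53 targets and apoptosis genes, 6 rose (17.6%) and 8 fell (23.5%), or 2 and 1 without the experiment block, and 4 or 5 fell with any 1 of the 6 libraries left out. CDKN1A, the cell cycle inhibitor p21, had 831, 949 and 840.2 CPM with IL-4, against 346, 432 and 358 CPM without it (1.21, SE 0.072). FAS, a death receptor, rose by 1.12 (SE 0.16), and TNFRSF10B, the death receptor for TRAIL, fell by 0.37 (SE 0.063, adjusted p = 2.67e-04, or 0.553 without the block). Of 34 tested cell cycle genes, 1 rose (2.94%), CDKN1A, and 4 fell (11.8%). Without the block 1 rose and 0 fell, and 2 fell without replicate 1 or 2 of either group. Those that fell included CDK6, a kinase that starts the cycle, at 438 ± 50.7 CPM with IL-4 and 569 ± 76.4 CPM without it (-0.37, SE 0.062), and the factors E2F1 (-0.48) and E2F2 (-0.65). The adjusted p without the block was 0.254, 0.221 and 0.945 for these 3 genes, and E2F2 lost its call without unstimulated replicate 1 or 2 or IL-4 replicate 1 or 2 (up to 0.215).

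**Figure D4:**
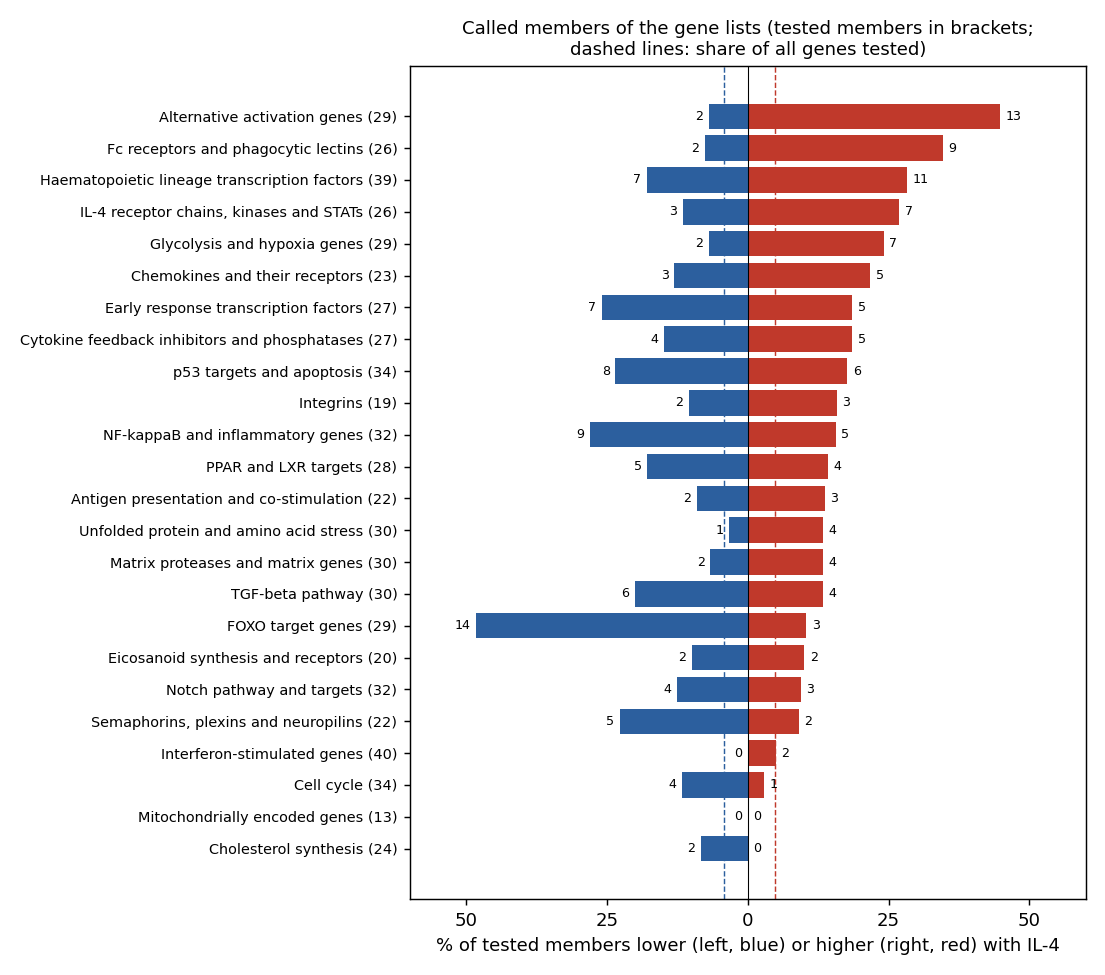
Share of the tested members of 24 gene lists that were lower (blue, left of 0) or higher (red, right of 0) with IL-4 in IRES cells, in percent, with the number of called members at each bar and the number tested in brackets. Dashed lines mark 4.18% and 4.87%, the shares of all genes tested. The longest bar to the right is that of alternative activation genes (13 of 29), and the longest to the left that of FOXO targets (14 of 29). Lists and members were chosen with earlier results of these data known.

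Of 30 tested matrix genes and proteases, 4 rose (13.3%, beside 4.87% of all genes) and 2 fell (6.67%, beside 4.18%), or 2 and 0 without the experiment block. HAS3, which makes hyaluronan, had 84.2, 104 and 114 CPM with IL-4, against 3.70, 8.59 and 5.53 CPM without it (4.09, SE 0.22, adjusted p = 4.48e-08). CD44, the hyaluronan receptor, had 985, 1544 and 1215 CPM with IL-4, against 571, 1028 and 743 CPM without it. Its groups overlapped, with experiment 2 high in both, and the rise was present in each experiment (0.69, SE 0.077, adjusted p = 1.26e-06, or 0.213 without the block). VCAN, a hyaluronan-binding proteoglycan, averaged 4.33 ± 0.609 CPM with IL-4 and 0.768 ± 0.107 CPM without it (2.48, SE 0.28). ADAM17, the protease that sheds TNF, fell by 0.25 (adjusted p = 0.0086, or 0.255 without the block) and lost its call without IL-4 replicate 1 or 3 (up to 0.067).

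Of 19 tested integrins, 3 rose (15.8%, beside 4.87% of all genes) and 2 fell (10.5%, beside 4.18%), and none was called without the experiment block. ITGA6 and ITGA5, laminin and fibronectin receptor chains, fell by 0.64 and 0.40, and ITGAV and ITGA2 rose by 0.32 and 1.87, with adjusted p of 0.143 to 0.701 without the block over the 4 genes. ITGA2 was low, with 3.02, 3.76 and 5.69 CPM with IL-4, against 0.0726, 1.66 and 1.72 CPM without it, so the size of its change depends on the few reads of experiment 1. Of 30 tested genes of the TGF-beta pathway, 4 rose (13.3%) and 6 fell (20%), or 1 and 3 without the block. The ligand TGFB2 fell to 0.865 ± 0.268 CPM with IL-4, against 3.25 ± 0.620 CPM without it (-1.91, SE 0.24), and the receptor TGFBR1 fell to 116 ± 11.7 CPM with IL-4, against 189 ± 17.8 CPM without it (-0.70, SE 0.065). ACVR1, a receptor of the BMP branch, rose by 0.91 (SE 0.11), and the repressor SKI by 0.64 (adjusted p = 2.43e-05, or 0.105 without the block). Of 22 tested semaphorins, plexins and neuropilins, 2 rose (9.09%) and 5 fell (22.7%), or 0 and 2 without the block, and 3 fell without unstimulated replicate 2 or 3 or IL-4 replicate 1 or 2. SEMA6D, a membrane-bound semaphorin, fell by 2.08 (SE 0.31), PLXNC1, the receptor of SEMA7A, by 0.61 (SE 0.082), NRP2 by 0.40 and PLXND1 by 0.21. The adjusted p of NRP2 and PLXND1 was 0.527 and 0.306 without the block, and PLXND1 lost its call without unstimulated replicate 2 or 3 or IL-4 replicate 1 or 2 (up to 0.071).

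Of 29 tested glycolysis and hypoxia genes, 7 rose (24.1%) and 2 fell (6.9%), or 3 and 0 without the experiment block, and 4 rose without unstimulated replicate 1. HIF1A, the oxygen-sensing factor of that route, rose to 210.2 ± 10.1 CPM with IL-4, against 160 ± 7.34 CPM without it (0.40, SE 0.070), and its relative EPAS1 to 13.9 ± 1.87 CPM with IL-4, against 7.88 ± 0.833 CPM without it (0.82, SE 0.13). EGLN3, a prolyl hydroxylase that marks HIF proteins for destruction, had 14.1, 6.69 and 12 CPM with IL-4, against 3.63, 4.11 and 3.04 CPM without it (1.56, SE 0.23). PFKP, a phosphofructokinase, rose by 0.61 (adjusted p = 1.68e-04, or 0.286 without the block). Of 30 tested genes of the unfolded protein and amino acid stress responses, 4 rose (13.3%) and 1 fell (3.33%, beside 4.18% of all genes), or 2 and 0 without the block. ATF5, a stress-responsive transcription factor, had 348, 291 and 385 CPM with IL-4, against 126, 117 and 131 CPM without it (1.45, SE 0.056, adjusted p = 9.43e-14). SLC7A11, the cystine importer, rose by 0.85 (SE 0.12), while GCLC, which starts glutathione synthesis from cysteine, fell to 91.1, 131 and 82.8 CPM with IL-4, against 233, 278 and 218 CPM without it (-1.27, SE 0.090). XBP1 rose by 0.58 and PPP1R15A fell by 0.32 (adjusted p without the block 0.616 and 0.745), and PPP1R15A lost its call without unstimulated replicate 2 or 3 or IL-4 replicate 1 (up to 0.174). None of the 13 mitochondrially encoded genes was called by edgeR or DESeq2, 0 had an unadjusted p under 0.05, and their median change was -0.14.

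Notch genes were examined because the series varies this pathway in its other cells. Of 32 tested components and targets in IRES cells, 3 rose (9.38%, beside 4.87% of all genes) and 4 fell (12.5%, beside 4.18%). None was called without the experiment block, and 1 rose without replicate 3 of either group or unstimulated replicate 1. NOTCH1 rose to 231 ± 39.0 CPM with IL-4, against 188 ± 40.5 CPM without it (0.30, SE 0.055), and NOTCH2 fell to 188 ± 7.75 CPM with IL-4, against 241 ± 22.9 CPM without it (-0.35, SE 0.074). The ligand DLL1 fell by 0.70 and LFNG, which adds sugars to Notch receptors, by 0.86. Their adjusted p without the block lay between 0.169 for DLL1 and 0.801 for NOTCH1. Of the cell type markers, FCGR1A and ITGAM rose by 0.78 and 0.26 among 17 tested macrophage and monocyte markers, and NKG7 rose by 0.56 among 10 tested T and NK cell markers, with adjusted p of 0.674, 0.457 and 0.205 without the block. ITGAM lost its call without unstimulated replicate 3 or IL-4 replicate 2 (up to 0.110), and NKG7 without unstimulated replicate 2 or 3 or IL-4 replicate 1 or 3 (up to 0.135). None of the tested markers of B cells (4), fibroblasts and epithelia (8) or erythroid cells and megakaryocytes (1) was called by edgeR or DESeq2, and 1 of these 13, in the second list, had an unadjusted p under 0.05.

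Further genes had large changes outside these lists. PPP1R14A, an inhibitor of myosin phosphatase, averaged 6.94 ± 0.306 CPM with IL-4 and 0.169 ± 0.151 CPM without it (5.26, SE 0.35). TNFRSF19, a receptor of the TNF family known from hair follicle and neural progenitors, had 28.2, 20.7 and 31.4 CPM with IL-4, against 1.82, 1.44 and 2.42 CPM without it (3.82, SE 0.15). CA7, a carbonic anhydrase, had 41.3, 65.5 and 46.0 CPM with IL-4, against 3.70, 6.13 and 3.98 CPM without it (3.46, SE 0.13). CH25H, which makes 25-hydroxycholesterol, averaged 4.80 ± 1.43 CPM with IL-4 and 0.523 ± 0.170 CPM without it (3.17, SE 0.38). INHBE, an activin subunit, averaged 36.4 ± 11.4 CPM with IL-4 and 5.16 ± 2.61 CPM without it (2.84, SE 0.13), and STAMBPL1, a deubiquitinase, 62.2 ± 7.13 CPM with IL-4 and 9.06 ± 0.485 CPM without it (2.77, SE 0.12). In each of these 6 genes every IL-4 library lay above every unstimulated one.

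ANKRD22 had 43.1, 9.47 and 28.5 CPM with IL-4, against 4.14, 0.433 and 2.03 CPM without it (3.60, SE 0.19), with experiment 2 lowest in both groups. CCNP, a cyclin family gene, rose by 4.31 (SE 0.30), LYPD6B by 2.89, JCAD, an endothelial junction protein, by 2.86, and NIPAL1, a magnesium transporter, by 2.82. LOX, which cross-links collagen, rose by 3.58 (SE 0.56), with 2.04, 2.78 and 3.50 CPM with IL-4, against 0.581, 0 and 0.0780 CPM without it, so the size of its change depends on the prior count. HSPA6, a stress-inducible heat shock protein, rose by 2.79 (SE 0.35), and its reads may be shared with the pseudogene HSPA7. By the size of the CPM difference, which favours abundant and long transcripts, further rises were those of SUCNR1, the succinate receptor, at 788 ± 91.3 CPM with IL-4 and 338 ± 5.34 CPM without it, IL4I1, a secreted amino acid oxidase known as an IL-4-induced gene, at 596 ± 138 CPM with IL-4 and 292 ± 42.1 CPM without it, and B3GNT5, a glycolipid sugar transferase, at 369 ± 107 CPM with IL-4 and 81.1 ± 22.9 CPM without it.

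**Figure D5:**
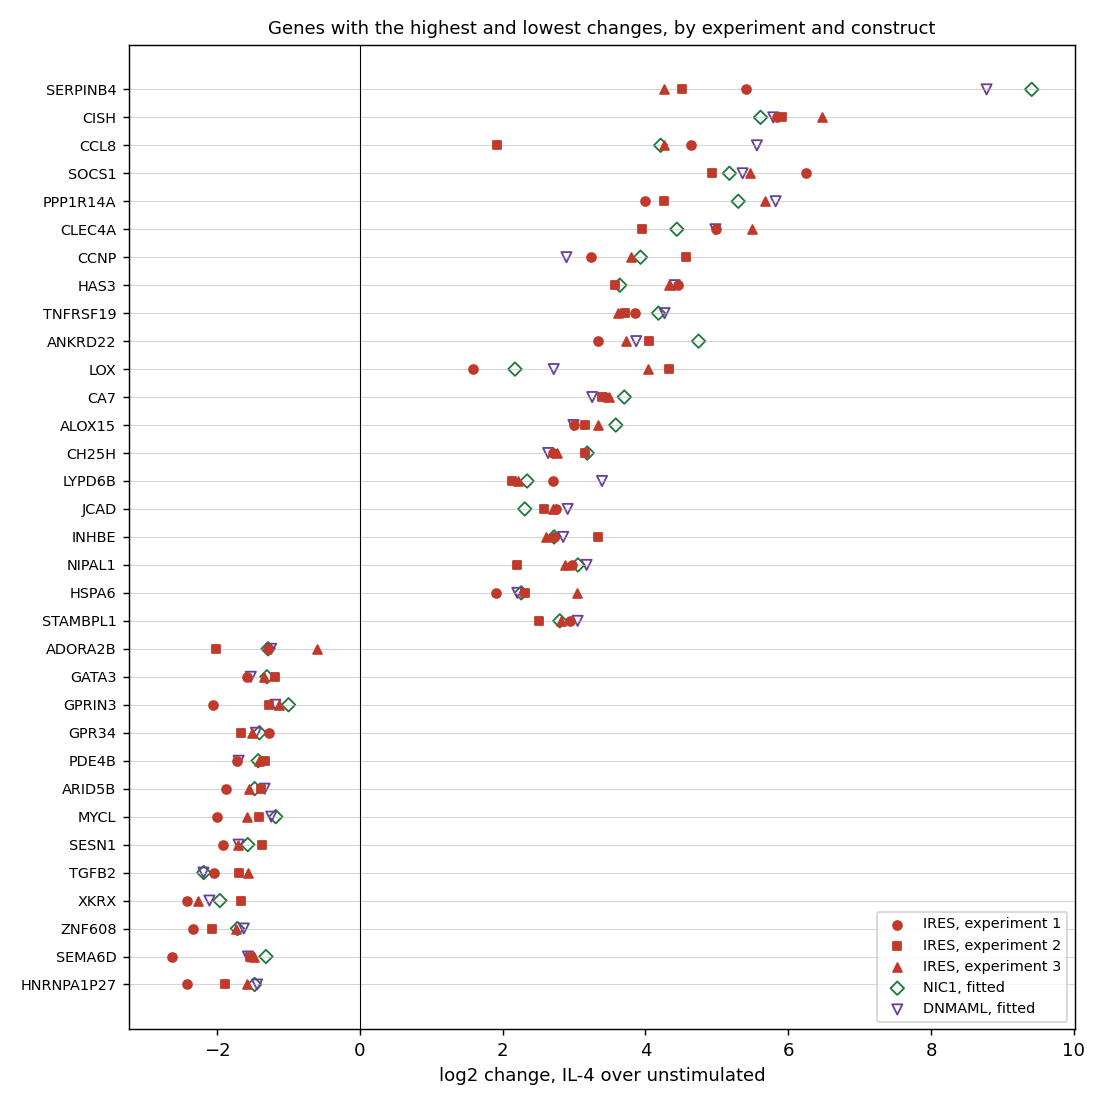
Log2 change (horizontal axis, IL-4 over unstimulated) of the 20 genes with the highest and 13 of the 14 with the lowest changes, in IRES cells by experiment (red markers, log2 CPM with a prior count of 2) and as fitted in NIC1 (green) and DNMAML (purple) cells. All points of a gene lie on the same side of 0, which for the IRES points follows from how the genes were picked. Values of genes near 0 in an unstimulated library, such as SERPINB4, CCL8 and LOX, depend on the prior count.

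Of the 14 genes that fell most, SEMA6D, TGFB2, SESN1 and GATA3 are described above. ADORA2B, an adenosine receptor that raises cyclic AMP, had 0.985, 1.05 and 1.24 CPM with IL-4, against 2.61, 4.69 and 1.95 CPM without it (-1.46, SE 0.29). PDE4B, which degrades cyclic AMP, had 4.47, 1.73 and 4.96 CPM with IL-4, against 15.0, 4.55 and 13.5 CPM without it (-1.54, SE 0.19). PDE4B overlapped between the groups, with experiment 2 low in both, while ADORA2B did not. XKRX, a member of the Kell blood group complex family, had 4.14, 18.3 and 7.22 CPM with IL-4, against 22.8, 58.4 and 35.3 CPM without it (-2.04, SE 0.28). ZNF608, a zinc finger gene, had 3.42, 2.18 and 5.40 CPM with IL-4, against 17.8, 9.67 and 18.2 CPM without it (-2.06, SE 0.15). MYCL, a MYC family factor, fell by 1.66 (SE 0.15), ARID5B, a chromatin factor, by 1.62 (SE 0.16), GPR34, a receptor for lysophosphatidylserine, by 1.54 (SE 0.31), and GPRIN3 by 1.51 (SE 0.22). HNRNPA1P27, a pseudogene whose reads may come from its parent gene, fell by 2.17. The adjusted p without the experiment block was 0.159 for XKRX, 0.165 for PDE4B, 0.161 for GPR34, 0.128 for GPRIN3 and 0.060 for ADORA2B.

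By CPM difference, the further falls were in genes of high level, and the changes were smaller. TSC22D1, a TGF-beta-responsive factor, had 207, 603 and 285 CPM with IL-4, against 339, 950.4 and 480.2 CPM without it (-0.70, SE 0.15), with experiment 2 high in both groups. SNX9, an endocytosis protein, averaged 228 ± 35.9 CPM with IL-4 and 389 ± 68.9 CPM without it (-0.77, SE 0.062), and PHC2, a Polycomb protein, 204 ± 41.4 CPM with IL-4 and 327 ± 91.7 CPM without it (-0.67, SE 0.074). ADGRE5, the adhesion receptor CD97, fell by 0.37 and DOT1L, a histone methyltransferase, by 0.33. Without the experiment block the adjusted p was 0.874 for TSC22D1, 0.167 for PHC2, 0.501 for ADGRE5 and 0.932 for DOT1L. TSC22D1 lost its call without unstimulated replicate 2 (0.052), and ADGRE5 without unstimulated replicate 3 or IL-4 replicate 1 or 2 (up to 0.092).

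The IL-4 response of IRES cells was then set against that of cells with active NOTCH1 or with Notch transcription blocked, which share the experiment numbers but no library with the IRES cells. In NIC1 cells 772 genes rose (5.13%) and 551 fell (3.66%), and in DNMAML cells 753 rose (5.01%) and 743 fell (4.94%). Of the 732 genes that rose in IRES cells, 601 (82.1%) also rose in NIC1 cells, 606 (82.8%) in DNMAML cells, 533 (72.8%) in both and 58 in neither. These shared genes were 77.8% of those that rose in NIC1 cells and 80.5% of those that rose in DNMAML cells. Of the 628 that fell, 411 (65.4%) also fell in NIC1 cells, 500 (79.6%) in DNMAML cells, 366 (58.3%) in both and 83 in neither, which were 74.6% of the falls in NIC1 cells and 67.3% of those in DNMAML cells. No gene was called in opposite directions.

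A test of the difference itself called no gene, neither for IRES minus NIC1 (0%) nor for IRES minus DNMAML (0%), in edgeR or in DESeq2. At an unadjusted p under 0.05, edgeR gave 366 and 237 genes and DESeq2 174 and 81, while 752 would be expected if no gene differed. With a block for each construct and experiment number, which pairs each IL-4 library with its own unstimulated one, edgeR gave 811 and 474 such genes and again called none. A p that misses the threshold does not show that the responses are alike, so the differences are given with 95% intervals. These are approximate, as they take a normal quantile of an SE derived from the F statistic. They can be narrower than the test: SH2B3 against NIC1 had -0.36 to -0.00168, with an unadjusted edgeR p of 0.061. For differences near 0 the SE can be far too large, as for FCER2 against NIC1 (-0.13, SE 6.50). Of the 138 named genes that were called in IRES cells, the difference was at most 0.5 on the log2 scale in 119 against NIC1 and in 129 against DNMAML. CISH had a change of 6.16 in IRES and 5.61 in NIC1 cells, a difference of 0.55 (0.058 to 1.04), and of 5.79 in DNMAML cells, a difference of 0.37 (-0.111 to 0.855). For SOCS1 the differences were 0.54 (-0.289 to 1.36) against NIC1 and 0.35 (-0.494 to 1.19) against DNMAML. SESN1 differed by -0.10 (-0.344 to 0.145) and 0.028 (-0.217 to 0.273), and CYSLTR1 by 0.051 (-0.102 to 0.204) and -0.078 (-0.231 to 0.0758).

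In 3 named genes the unadjusted p was under 0.05 for both differences and IRES cells lay between the other two. EGLN3 rose by 1.56 in IRES cells, with values of 0.39 in NIC1 and 2.41 in DNMAML cells, so the differences were 1.17 (0.543 to 1.80) and -0.85 (-1.52 to -0.191). EPAS1 had 0.82 in IRES cells, 1.33 in NIC1 and 0.38 in DNMAML cells, and F13A1 had 0.69 in IRES cells, 1.07 in NIC1 and 0.34 in DNMAML cells. The order of EGLN3 was thus the reverse of that of EPAS1 and F13A1. All 3 were picked out after their values were seen, and none passed the adjustment over the 15037 genes in edgeR (adjusted p at least 0.9996). Without the low-count filter, EGLN3 passed the test of IRES minus NIC1 (adjusted p = 6.18e-04). Its difference was 1.17 in both fits, and only the SE was smaller, at 0.218 against 0.319 with the filter.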

How the data were processed

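The authors deposited raw counts, whole numbers of reads for each gene in each library. Per the labels' protocols, total RNA was isolated on columns and 1 ug went into Illumina TruSeq libraries. The submitters' processing notes name the build GRCh38.p12 and, as tools, HISAT2, HTSeq, FastQC, Trimmomatic and DESeq2. Their versions and settings, the annotation and the strand setting were not given in the sources used here, so reads of overlapping, antisense or near-identical genes may have been counted together. Of 58051 genes per file, 56948 had a symbol in the name table and 57447 were found in GENCODE release 29. Entries that name no gene held 24.11% to 26.12% of the reads of the IRES libraries and were left out of library sizes and tests.

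The filterByExpr function of edgeR, given the 6 groups of all 18 libraries, kept 15037 genes, and library sizes were scaled by TMM. CPM are on that scale. The model (edgeR 4.0.16, R 4.3.3, glmQLFit with robust dispersion) held 6 group means over all 18 libraries, so that all groups share 1 estimate of the spread, and the experiment number as a block, with 10 residual degrees of freedom. IL-4 over unstimulated in IRES cells, and its differences from NIC1 and DNMAML, were tested by quasi-likelihood F tests. SEs came from the F statistic, and for large changes with few unstimulated reads they can be smaller than counting error. Alternatives used no block, the 6 IRES libraries alone, DESeq2 (1.42.0) or its size factors, no filter, 1 CPM in 3 libraries, each IRES library left out and, chosen after seeing the data, a fit without unstimulated IRES replicate 3 and IL-4 DNMAML replicate 3, in which the most genes were detected.

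The numbers paired the libraries: deviations of log2 CPM (prior count 2) from group means correlated between same-numbered libraries in all 45 pairs (Pearson r across genes 0.206 to 0.759), against -0.654 to 0.354 for different numbers (median -0.395), so the ranges overlap. Libraries of one group differed by more than counting noise, so none was counted as a duplicate. Between experiments 1 and 3, chi-square per degree of freedom over genes was 7.55 without IL-4 and 8.07 with it. For pairs with experiment 2 it was 41.2 and 34.55 without IL-4, and 45.14 and 35.85 with it.

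The named genes were the 20 highest and 14 lowest changes among called genes with at least 2 CPM in a group and 1 direction in all experiments, the 8 largest rises and falls in CPM, the 4 called members of each list with the lowest adjusted p and, for the receptor, feedback and alternative activation lists, every called and up to 4 uncalled members. Some of these are not reported here. Members and lists were chosen with earlier results of these data known, so list counts are given without a set test. Promoters are from RefSeq.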

Additional observations from a re-analysis of the deposited data

How the results depend on the processing

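Every one of the 1360 calls kept its direction in each alternative in which the gene was tested. The calls came to 1364 with DESeq2's size factors, 1284 with DESeq2, 1571 with no filter, 1357 with a filter of 1 CPM, 988 to 1111 with 1 IRES library left out, 441 with no replicate block and 2814 from the 6 IRES libraries alone with the replicate block. Genes higher came to 304 with no replicate block and 1287 from the 6 libraries. Genes lower came to 137 and 1527, to 399 to 499 with 1 library left out, the lowest without unstimulated replicate 3 and next to it 405 without IL-4 replicate 1, and to 413 when unstimulated replicate 3 and the IL-4 DNMAML replicate 3 were both dropped. Falls of at least 1 on the log2 scale numbered 33 with no replicate block. Calls summed over the gene lists numbered 181, against 62 with no replicate block and 299 from the 6 libraries. Over all 6 leave-outs 766 of the 1360 calls were kept, 464 higher and 302 lower. Of the 138 named and called genes, 120 were kept in all leave-outs, 76 with no replicate block, 137 by DESeq2 (not FCER2) and 132 in the fit of 6 libraries, where CCL8 and FCER2 were not tested. The cause of these shifts was not tested. With no low-count filter, 8 genes passed the test of IRES minus NIC1 (RPS10, EGLN3, HSPG2, RPS3AP5, EEF1A1P5, TGM2, MT-ATP8 and RPL41, among them ribosomal, translation and pseudogene entries) and 1 that of IRES minus DNMAML (EEF1A1P13), against 0 in either test with the filter. All 9 were also tested with the filter. For TGM2 the difference from NIC1 was 0.53 in both fits, with an SE of 0.087 without the filter and 0.418 with it. A block for each construct and number called 0 in either test. Values near 0 changed sign: TYK2 between -0.045 and 0.062, INPP5D between -0.024 and 0.018, PTPN11 between -0.020 and 0.055, SPRED2 between -0.13 and 0.025 and FN1 between -0.24 and 0.16 with 1 library left out, TYK2 at -0.048 and FN1 at 0.13 with both dropped, and INPP5D at 0.0043 with no filter. Depth limits genes under about 1 CPM, such as CCL17 and CCL26.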

Other observations

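Several of the genes that rose by at least 1 on the log2 scale lie next to each other. The genes and the distance rule were chosen after the data were seen, and no test was made. When genes with such a rise were joined across gaps of at most 250 kb (GENCODE release 29, GRCh38), 7 runs of at least 3 genes held 24 of the 214 with a position. Each stretch begins and ends at genes with such a rise, so a high share of risen genes within it follows from the rule. How many runs other sets of genes would give was not counted. On chromosome 2, the receptor genes IL1R1, for IL-1, IL1RL1, for IL-33, and IL18R1, for IL-18, all rose, by 2.34 (SE 0.16), 2.05 (SE 0.31) and 1.47 (SE 0.15), and no other gene in the 334 kb they span was tested. IL1R1 averaged 11.3 ± 2.58 CPM with IL-4 and 2.24 ± 1.04 CPM without it, IL1RL1 4.41 ± 1.24 CPM with IL-4 and 1.06 ± 0.601 CPM without it, and IL18R1 95.8 ± 13.6 CPM with IL-4 and 35.0 ± 13.8 CPM without it (SD, n = 3 each). IL1RL1 and IL18R1 overlap in the annotation, so their reads may not be separate.

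On chromosome 10, ANKRD22, STAMBPL1, FAS and CH25H, described above, lie within 385 kb, and of the 5 genes tested there only ACTA2 was not called. On chromosome 19, SPINT2, a protease inhibitor, PPP1R14A and KCNK6, a potassium channel, rose by 1.47 (SE 0.071), 5.26 (SE 0.35) and 1.19 (SE 0.082) within 88 kb, and of the 4 genes tested there YIF1B was not called. SPINT2 averaged 354 ± 51.9 CPM with IL-4 and 128 ± 19.3 CPM without it, and PPP1R14A lies inside it on the other strand. Elsewhere on chromosome 19, all 5 genes tested in a stretch of 86.3 kb rose, among them VSIG10L (1.20, SE 0.12) and SIGLEC10, an inhibitory receptor for sialic acids (1.93, SE 0.15). On chromosome 4, NFXL1 and NIPAL1, which overlap at their ends, rose by 1.69 (SE 0.086) and 2.82 (SE 0.22). The remaining runs held the FCGR2 genes with HSPA6 on chromosome 1, where 4 of 5 tested genes rose, and PLAU with C10orf55 and 2 pseudogenes on chromosome 10, where 5 of 12 tested genes rose and 7 were not called. PLAU, the urokinase plasminogen activator, averaged 379 ± 378 CPM with IL-4 and 168 ± 170 CPM without it, so its SD was close to its mean in both groups.

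The size of the rise differed between experiments in several genes. Experiment 2 gave the lowest change of TGM2 (1.01) and CLEC4A (3.95), and experiment 1 that of LOX (1.59), GJB2 (1.13) and PPP1R14A (3.99). The unstimulated libraries together held 9 reads of LOX and 7 of PPP1R14A, so their changes by experiment depend on few reads and the prior count. With IL-4, PPP1R14A had 6.77, 6.76 and 7.29 CPM in experiments 1, 2 and 3. Over all genes that rose, the median change was 0.62, 0.615 and 0.628 in experiments 1, 2 and 3. CCL2, a monocyte chemokine, had changes of 2.35, 0.71 and 1.38 in experiments 1, 2 and 3.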
